A study of Mus musculus with 18 samples.

Results

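The genes described here are Yap1 and Wwtr1, which encode the transcriptional coactivators YAP and TAZ, the DNA-binding partners Tead1 and Tead3, and 6 genes known as targets or regulators of this system, Axl, Ankrd1, Amotl2, Ccn1 (formerly Cyr61), Ccn2 (formerly Ctgf) and Ajuba. These 10 genes were taken by name from a count table of 32285 genes, and all 10 passed the low-count filter that left 16034 genes for testing. RNA was sequenced from regions cut out of frozen kidney sections of male C57BL/6 mice. The region types were F4/80-high cystic, F4/80-low cystic and non-cystic tissue, with 6 libraries each, 2 from each of the same 3 kidneys. F4/80, the product of Adgre1 on the surface of mouse macrophages, defined the cystic region types. Every region, the non-cystic ones included, came from iKspCre-Pkd1del kidneys labelled Pkd1 KO. In this model a kidney-specific, tamoxifen-inducible Cre deletes Pkd1 exons 2 to 11, which lie between 2 loxP sites, and tamoxifen was given by mouth at 12.5 mg/kg on postnatal days 18 and 19. Polycystin-1, the product of Pkd1, is the protein most often mutated in human autosomal dominant polycystic kidney disease. The Cre acts in kidney epithelium, so macrophages, fibroblasts and vessels in the same regions keep the gene. The mice were killed in a mild cystic phase, at a labelled age of 269 for kidneys 1 and 3 and of 297 for kidney 2, with no unit. The kidneys are only numbered, and whether each is from another mouse is not stated. No library from a Cre-negative or wild-type kidney was analysed here, so each comparison is between regions of Pkd1-deleted kidneys.

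YAP and TAZ are the output of the Hippo pathway. The kinases MST1 and MST2 (encoded by Stk4 and Stk3) activate LATS1 and LATS2, which phosphorylate YAP and TAZ and so keep them out of the nucleus. Unphosphorylated YAP and TAZ enter the nucleus and bind TEAD transcription factors on DNA, and stretch, stiff matrix and actin tension favour this state. In kidney the coactivators act in tubule growth, injury repair and fibroblast activation, and nuclear YAP has been described in cyst-lining epithelium. The counts below measure RNA and carry no information on where the proteins were or whether they were phosphorylated.

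In F4/80-high cystic regions the transcripts of 4 YAP/TAZ targets and of the LATS-binding protein Ajuba were higher than in non-cystic regions. Those of YAP, TAZ, TEAD1, TEAD3 and of Amotl2, a further target, did not pass the test. In this comparison 19.7% of all tested genes were called higher and 19.5% lower. Ankrd1 was 32.8-fold, Axl 6.54-fold, Ccn1 4.95-fold, Ccn2 2.35-fold and Ajuba 1.78-fold higher in F4/80-high cystic than in non-cystic regions, by the fitted fold change over 3 kidneys. The calls of Ccn2 and Ajuba lay close to the threshold, and each was lost when any of 11 single libraries was left out. The Ccn1 call was lost without kidney 3. Axl was also 2.38-fold higher in F4/80-low cystic than in non-cystic regions. These calls come from edgeR's quasi-likelihood test with Benjamini-Hochberg adjustment over all 16034 genes at an adjusted p below 0.05, with the kidney as a block. All other adjusted p values in the text come from the same test unless another is named. Levels are CPM, the counts scaled to equal library sizes by the trimmed mean of M values, and the value for a kidney sums its 2 libraries of a region type.

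Library totals ran from 5366651 to 9188813 counts, and both libraries of each kidney and region type differed from each other by more than sampling noise. Pkd1, the deleted gene, had 4.96 to 14.3 CPM in the F4/80-high libraries, 4.77 to 11.0 CPM in the F4/80-low libraries and 4.26 to 9.67 CPM in the non-cystic libraries. With all regions carrying the deletion and other cells keeping the gene, these levels do not check a label. Adgre1, which the dissection was based on, averaged (± SD, n = 3 kidneys each) 53.9 ± 14.9 CPM in F4/80-high regions, with 6.55 ± 1.65 CPM in F4/80-low ones and 2.56 ± 0.962 CPM in non-cystic ones. In such bulk tissue, fewer cells of a type and less RNA per cell cannot be told apart.

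The promoters of the members are shown because TEAD factors bind a short DNA word, GGAATG on either strand (CATTCC when read on the other), and 8 members have a promoter window in the RefSeq table of the mouse assembly GRCm38.p6. A window runs from 250 bases before to 50 bases after an annotated start, so 300 bases in all, and is read 5′ to 3′ along the gene. The windows of the 4 called genes with an entry are given whole, with the TEAD word in capitals.

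Ankrd1, chr19:36119795-36120094, minus strand: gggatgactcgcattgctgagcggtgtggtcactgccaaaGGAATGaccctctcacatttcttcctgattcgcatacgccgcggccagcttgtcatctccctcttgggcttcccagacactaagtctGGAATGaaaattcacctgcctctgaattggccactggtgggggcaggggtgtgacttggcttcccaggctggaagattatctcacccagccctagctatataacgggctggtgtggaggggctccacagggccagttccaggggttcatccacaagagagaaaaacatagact

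Ccn1, chr3:145649936-145650235, minus strand: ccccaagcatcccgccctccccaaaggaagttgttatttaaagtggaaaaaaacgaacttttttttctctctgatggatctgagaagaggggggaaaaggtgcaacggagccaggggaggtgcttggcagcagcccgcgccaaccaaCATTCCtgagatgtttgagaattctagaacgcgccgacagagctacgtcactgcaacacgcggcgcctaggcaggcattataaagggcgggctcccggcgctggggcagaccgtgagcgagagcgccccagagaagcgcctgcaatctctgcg

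Axl, chr7:25788684-25788983, minus strand: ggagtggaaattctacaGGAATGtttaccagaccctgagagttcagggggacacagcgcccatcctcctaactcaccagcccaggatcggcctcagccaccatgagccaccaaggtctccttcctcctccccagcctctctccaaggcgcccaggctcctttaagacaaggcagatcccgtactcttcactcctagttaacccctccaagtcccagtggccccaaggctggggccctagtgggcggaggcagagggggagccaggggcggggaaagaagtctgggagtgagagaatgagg

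Ajuba, chr14:54577612-54577911, minus strand: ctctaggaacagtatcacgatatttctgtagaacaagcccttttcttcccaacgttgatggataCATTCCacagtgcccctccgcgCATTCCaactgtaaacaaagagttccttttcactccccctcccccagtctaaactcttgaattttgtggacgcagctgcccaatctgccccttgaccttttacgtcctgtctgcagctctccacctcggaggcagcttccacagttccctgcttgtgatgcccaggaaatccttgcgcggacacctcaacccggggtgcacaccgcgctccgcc

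For the members that were not called between F4/80-high cystic and non-cystic regions, 26 bases around the word, again in capitals, are enough to show its setting.

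Yap1, chr9:8004722-8004747, minus strand: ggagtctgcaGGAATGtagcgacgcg

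Wwtr1, chr3:57576031-57576056, minus strand: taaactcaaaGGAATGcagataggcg

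Tead3, chr17:28350972-28350997, minus strand: cgacgagcgaGGAATGgggtgcgcgg

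Amotl2, chr9:102717729-102717754, plus strand: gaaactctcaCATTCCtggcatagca

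The word was present in at least 1 window of 8 of the 8 members with an entry, and in 10 of their 11 windows (90.9%), since Wwtr1 and Tead3 have several annotated starts. The Wwtr1 windows overlap and hold the same copy of the word, so the windows are not independent. Over all 32851 windows in the table the share was 14.7%, and among the 11877 tested genes with a window 14.8% of genes held the word. In Ankrd1 it began 210 and 123 bases before the start, in Ajuba 186 and 164, in Axl 233 and in Ccn1 103. The windows of Yap1, Wwtr1, Tead3 and Amotl2 held it 141, 136, 182 and 65 bases before their first listed start. The window of the second Tead3 start held 3 further copies, which began 123 and 114 bases before and 2 bases after that start. Members that were called and members that were not both carried it. In 17 further genes of a published YAP/TAZ target signature, which does not count the members, 3 of 11 genes with a window held the word, and so did 5 of 16 Hippo pathway regulators. The AP-1 word TGANTCA, in which N is any base, was in 7.81% of all windows, and the CArG box bound by SRF was in 1.63%. Neither was found in a window of a member, so none overlapped a TEAD word there. A match is a description of these letters and not of a factor bound there.

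**Figure D1:**
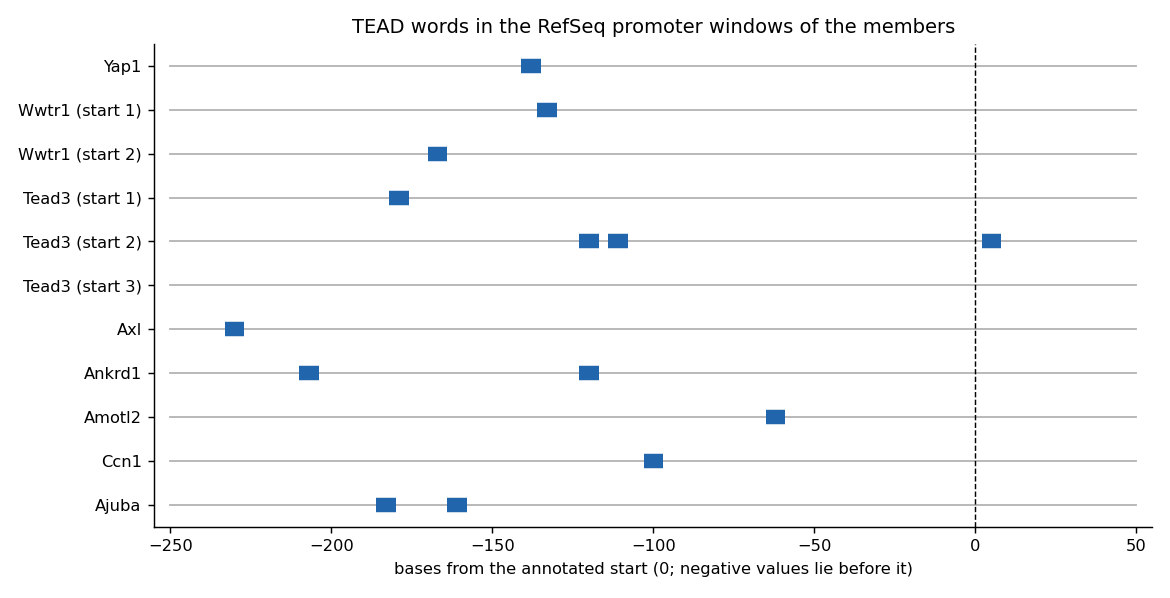
Positions of the TEAD word (blue blocks, to scale) in the RefSeq promoter windows of 8 members, 1 line per annotated start, against the distance in bases from that start. The word appears in 10 of 11 windows, and in Axl, Ankrd1, Ccn1 and Ajuba all of its copies lie before the start.

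Neither Yap1 nor Wwtr1 was called in any comparison, except under scaling by total counts, where Yap1 reached 0.86 (log2 fold change, adjusted p = 0.0097) and Wwtr1 0.71 (adjusted p = 0.0136) between F4/80-high and non-cystic regions, and Yap1 0.73 (adjusted p = 0.0303) between the cystic region types. Yap1 (ENSMUSG00000053110, chr9:7931999-8004596, minus strand, GRCm38) had 21.1, 20.9 and 21.4 CPM in F4/80-high sums of kidneys 1, 2 and 3, 18.7, 19.1 and 15.9 CPM in F4/80-low sums, and 19.4, 16.8 and 17.6 CPM in non-cystic sums. The 3 F4/80-high sums lay above all others, by a margin that the test did not call. Its log2 fold change was 0.24 ± 0.17 (SE, n = 3 kidneys, adjusted p = 0.278) between F4/80-high and non-cystic regions. Wwtr1 (ENSMUSG00000027803, chr3:57455649-57575910, minus strand) had 37.3, 42.3 and 54.8 CPM in F4/80-high, 40.9, 50.9 and 49.9 CPM in F4/80-low cystic and 39.8, 44.3 and 41.0 CPM in non-cystic sums. The region types overlapped, and the log2 fold change between F4/80-high and non-cystic regions was 0.09 ± 0.16 (adjusted p = 0.693). An antisense gene, Gm20416, overlaps 116 bases of Yap1 exons on the other strand, and the library kit does not mark strand, so its reads cannot be told from those of Yap1.

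Tead1 and Tead3, which give YAP and TAZ their contact with DNA, did not pass the test either. Tead1 (ENSMUSG00000055320, chr7:112679318-112906807, plus strand) had 38.9, 30.9 and 48.5 CPM in F4/80-high, 37.6, 41.3 and 43.9 CPM in F4/80-low cystic and 26.6, 37.1 and 39.3 CPM in non-cystic sums. These overlapped, with a log2 fold change of 0.20 ± 0.18 between F4/80-high and non-cystic regions (adjusted p = 0.417). Tead3 (ENSMUSG00000002249, chr17:28331671-28350817, minus strand) had few counts, with 4 to 25 counts in F4/80-high, 6 to 14 in F4/80-low and 0 to 18 in non-cystic libraries. Its sums were 0.526, 1.39 and 2.54 CPM in F4/80-high, 1.36, 0.788 and 0.978 CPM in F4/80-low cystic and 0.619, 0.951 and 2.02 CPM in non-cystic regions. The sums overlapped, and the log2 fold change between F4/80-high and non-cystic regions was 0.28 ± 0.60 (adjusted p = 0.745).

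Of the regulators, Ajuba was higher in F4/80-high cystic regions and Amotl2 did not pass the test. Ajuba (ENSMUSG00000022178, chr14:54567472-54577558, minus strand) encodes a LIM protein that binds LATS kinases at cell junctions and restrains them under tension. It had 19.4, 19.2 and 21.8 CPM in F4/80-high, 14.0, 15.1 and 9.10 CPM in F4/80-low cystic and 9.54, 19.8 and 7.46 CPM in non-cystic sums. Kidney 2 stood apart, since its non-cystic value was as high as its F4/80-high value, and the groups overlapped. The log2 fold change between F4/80-high and non-cystic regions was 0.83 ± 0.29 (adjusted p = 0.0464), with a higher value in 2 of 3 kidneys. Amotl2 (ENSMUSG00000032531, chr9:102716672-102733418, plus strand) encodes an angiomotin that holds YAP in the cytoplasm and is itself a YAP/TAZ target. It had 26.4, 26.0 and 42.4 CPM in F4/80-high, 30.5, 21.6 and 21.1 CPM in F4/80-low cystic and 19.7, 23.0 and 28.1 CPM in non-cystic sums. Its log2 fold change was 0.40 ± 0.23 between F4/80-high and non-cystic regions (adjusted p = 0.194), with overlapping sums.

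Ankrd1 had the largest fold change of the members. This gene (ENSMUSG00000024803, chr19:36111961-36120099, minus strand) encodes a stretch-responsive ankyrin repeat protein and is among the most used YAP/TAZ reporter genes. Its library values had a lowest, median and highest level of 7.13, 18.9 and 81.9 CPM in F4/80-high, 1.60, 4.70 and 12.2 CPM in F4/80-low cystic and 0.172, 0.478 and 1.71 CPM in non-cystic regions. By kidney the sums were 12.6, 13.1 and 60.5 CPM in F4/80-high, 9.65, 3.28 and 4.74 CPM in F4/80-low cystic and 0.619, 1.10 and 0.388 CPM in non-cystic regions. All F4/80-high libraries lay above all non-cystic libraries, and kidney 3 alone exceeded 60 CPM. The log2 fold change between F4/80-high and non-cystic regions was 5.04 ± 0.88 (adjusted p = 0.00488), and it rests on 27 counts in the 6 non-cystic libraries together, with 1 to 14 in each. On the log2 scale with a prior count of 2 the differences within kidneys 1, 2 and 3 were 4.08, 3.43 and 6.87. Over the alternatives the fitted value ran from 3.85 without kidney 3 to 6.03 without library 2 of kidney 2 among the non-cystic ones.

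Ccn1 and Ccn2 encode secreted matricellular proteins that bind integrins and are direct YAP/TAZ targets, and both were higher in F4/80-high cystic regions. Ccn1 (ENSMUSG00000028195, chr3:145646976-145649981, minus strand) had a lowest, median and highest library value of 40.4, 69.3 and 164 CPM in F4/80-high, 12.9, 25.4 and 56.4 CPM in F4/80-low cystic and 6.22, 15.7 and 23.2 CPM in non-cystic regions. Its sums were 66.6, 47.9 and 147 CPM in F4/80-high, 31.5, 16.8 and 43.2 CPM in F4/80-low cystic and 8.66, 20.7 and 18.2 CPM in non-cystic regions. No F4/80-high library overlapped a non-cystic one, and the log2 fold change was 2.31 ± 0.43 (adjusted p = 0.0046). It was 2.97 without kidney 2 and 1.92 without kidney 3, where the call was lost (adjusted p = 0.0913). Ccn2 (ENSMUSG00000019997, chr10:24595442-24598683, plus strand), known as a fibrosis mediator, had 14.8, 21.1 and 49.8 CPM in F4/80-high, 16.6, 12.6 and 13.4 CPM in F4/80-low cystic and 6.98, 15.9 and 11.3 CPM in non-cystic sums. The lowest F4/80-high sum was below the highest non-cystic one, although the F4/80-high value was the higher in each of the 3 kidneys. Its log2 fold change was 1.23 ± 0.42 (adjusted p = 0.0487), with kidney differences of 1.07, 0.41 and 2.12. The antisense gene Gm15270 overlaps 665 bases of Ccn2 exons, so the Ccn2 count is uncertain there.

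Axl was the member with the smallest error for its size of change. Axl (ENSMUSG00000002602, chr7:25757273-25788705, minus strand) encodes a receptor tyrosine kinase of the TAM family, which binds the bridging ligand GAS6 on dying cells, is a YAP/TAZ target and is made by macrophages and fibroblasts as well as by epithelium. Its library values had a lowest, median and highest level of 44.9, 69.1 and 97.9 CPM in F4/80-high, 18.0, 25.5 and 31.9 CPM in F4/80-low cystic and 6.37, 10.6 and 12.4 CPM in non-cystic regions. The 3 region types did not overlap in any library, with F4/80-low values between the others. By kidney the sums were 66.8, 54.1 and 87.5 CPM in F4/80-high, 31.7, 23.5 and 20.7 CPM in F4/80-low cystic and 11.2, 10.5 and 9.86 CPM in non-cystic regions. The log2 fold change between F4/80-high and non-cystic regions was 2.71 ± 0.22 (adjusted p = 4.66e-05), and within kidneys 1, 2 and 3 it was 2.56, 2.35 and 3.13.

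**Figure D2:**
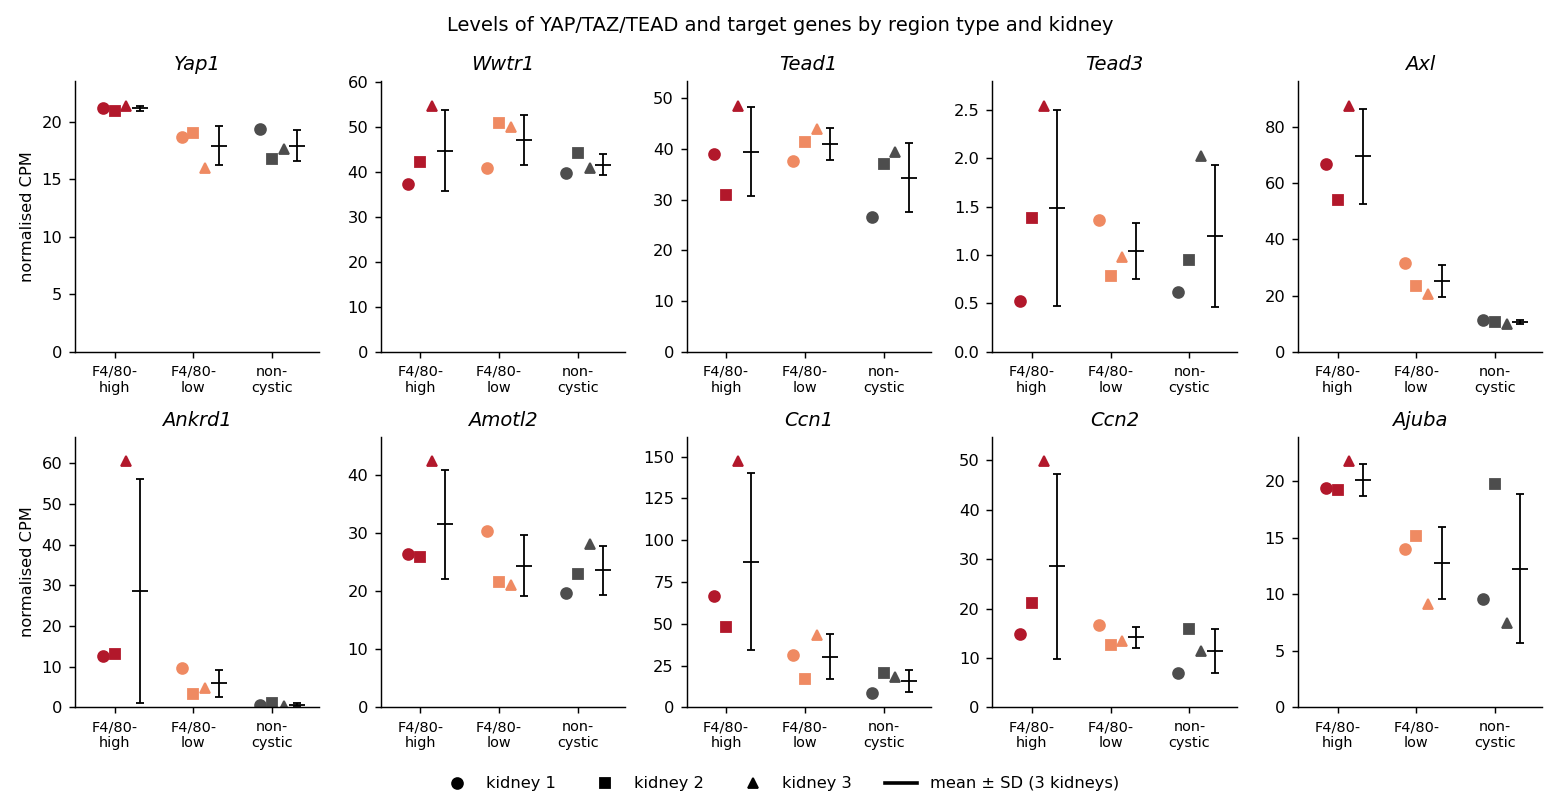
Level of each of the 10 genes in normalised CPM (y axes start at 0) by region type, with a symbol for each kidney (2 libraries summed) and a bar for mean ± SD over 3 kidneys. Axl separates all 3 region types, with 54.1 to 87.5 CPM in F4/80-high sums against 9.86 to 11.2 CPM in non-cystic ones, and the F4/80-high sum of kidney 3 is the highest of its group in every panel.

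Between F4/80-high cystic and non-cystic regions, 5 of the 10 members were called, all of them higher. Among all tested genes 19.7% were called higher and 19.5% lower in this comparison, so calls were common. The median log2 fold change of the members was 0.62, against 0.04 for all tested genes. The members were chosen with earlier results of these data known, so setting them beside all genes is a description only. In 4 members, Axl, Ankrd1, Ccn1 and Yap1, every F4/80-high sum was above every non-cystic sum, as in 26.8% of all tested genes. Scaling by total counts instead moved the median of all genes to 0.65, made 81.9% of the calls higher ones, against 50.2%, and brought Yap1, Wwtr1, Tead1 and Amotl2 to a call at log2 fold changes of 0.86, 0.71, 0.81 and 1.01.

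**Figure D3:**
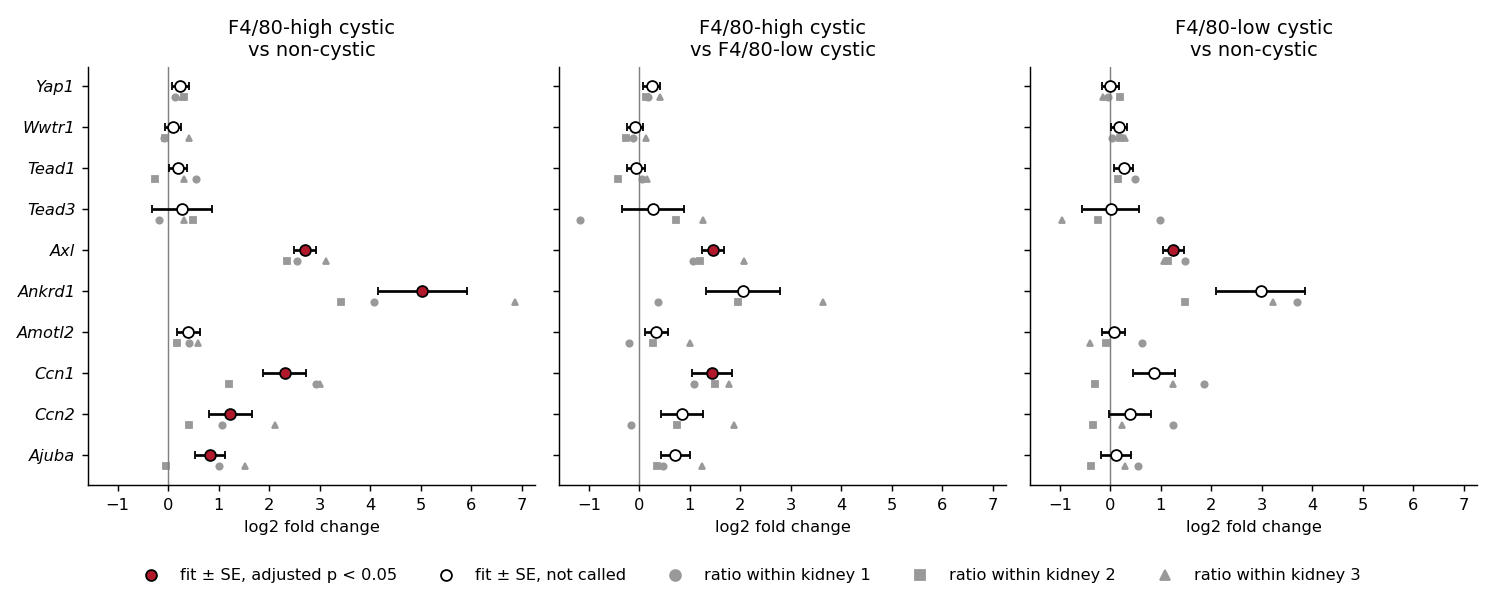
Log2 fold changes of the 10 genes in the 3 comparisons (circles with SE from the fit over 3 kidneys, filled where the adjusted p was below 0.05), with the difference within each kidney in grey (log2 scale, prior count of 2). Filled circles number 5 in the left panel, against 2 in the middle and 1 in the right panel, and the grey symbols of Ajuba in the left panel run from -0.04 to 1.53.

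The calls of Ccn2 and Ajuba between F4/80-high cystic and non-cystic regions lay close to the threshold, and each was lost in 14 of 31 alternative fits without a change of direction. Without kidney 3 the log2 fold change was 0.68 for Ccn2 (adjusted p = 0.147) and 0.45 for Ajuba (adjusted p = 0.23), and without kidney 1 the adjusted p was 0.0734 for Ccn2 and 0.219 for Ajuba. Removing 1 library ended the Ccn2 call for 11 of the 18 libraries, at log2 fold changes of 1.11 to 1.28 and adjusted p of 0.0509 to 0.0764. These were libraries 1 and 2 of kidney 3 and library 2 of kidney 1 and library 1 of kidney 2 among the F4/80-high ones, library 2 of kidney 1 and library 1 of kidneys 2 and 3 among the F4/80-low ones, and both of kidney 1 and library 1 of kidneys 2 and 3 among the non-cystic ones. It ended the Ajuba call for 11 libraries too, at 0.69 to 0.94 and adjusted p of 0.0508 to 0.134. These were library 2 of each kidney among the F4/80-high ones, library 2 of kidney 1 and library 1 of kidneys 2 and 3 among the F4/80-low ones, and all but library 2 of kidney 2 among the non-cystic ones. Without the kidney block Ajuba had an adjusted p of 0.104, and with no filter on low counts Ccn2 had 0.15. Ccn1 lost its call without kidney 3, at a log2 fold change of 1.92 (adjusted p = 0.0913), while Axl and Ankrd1 kept theirs in all 31 alternatives.

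Between the cystic region types, Axl and Ccn1 were higher in F4/80-high than in F4/80-low regions, so 2 of 10 members were called, against 10.3% of all tested genes called higher and 14.0% called lower. The log2 fold change was 1.46 ± 0.21 for Axl (adjusted p = 0.00226) and 1.44 ± 0.40 for Ccn1 (adjusted p = 0.0377), each with a higher value in 3 of 3 kidneys. Ankrd1 had 2.06 ± 0.73 (adjusted p = 0.0876), Ccn2 0.84 ± 0.42 (adjusted p = 0.184) and Ajuba 0.72 ± 0.29 (adjusted p = 0.0971). Yap1 had 0.24 ± 0.17, Amotl2 0.34 ± 0.23 and Tead3 0.27 ± 0.62, and Wwtr1 and Tead1 stood at -0.08 ± 0.16 and -0.06 ± 0.18, with adjusted p of 0.316 to 0.83 over these genes. In 5 members, Axl, Ccn1, Ankrd1, Ajuba and Yap1, every F4/80-high sum was above every F4/80-low sum, as in 22.1% of all tested genes. The median of the members was 0.53 on the log2 scale, against 0.04 for all tested genes. Under scaling by total counts the median of all genes was 0.52, 79% of calls were higher ones against 42.3% (53.1% with upper-quartile scaling), Yap1 and Ajuba were called as well, and Wwtr1 and Tead1 turned positive.

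Ccn1 lost its call between the cystic region types in 10 of 31 alternatives, at log2 fold changes of 1.25 to 1.66. Without kidney 3 the adjusted p was 0.259 and without kidney 1 it was 0.0744, and without the kidney block it was 0.0612. The single libraries whose removal ended this call were library 2 of kidney 2 among the F4/80-high ones, library 1 of kidneys 1 and 2 and library 2 of kidney 3 among the F4/80-low ones, and library 2 of kidney 1 and library 1 of kidney 2 among the non-cystic ones, with adjusted p of 0.0553 to 0.0831. Ankrd1 passed the threshold in 8 alternatives, among them the fit without the kidney block (2.28, adjusted p = 0.043). Its adjusted p was 0.0401 without F4/80-high library 1 of kidney 1, 0.045 without F4/80-low library 2 of kidney 1 and 0.04 without non-cystic library 2 of kidney 2. Ajuba reached 0.89 (adjusted p = 0.0426) without F4/80-low library 1 of kidney 1. With the 18 libraries entered singly beside a replicate block, 5 members were called in this comparison. That fit counts both libraries of a kidney and region type as separate replicates, although they share a kidney.

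Between F4/80-low cystic and non-cystic regions, Axl alone of the 10 members was called, where 1.51% of all tested genes were called higher and 0.0249% lower. Its log2 fold change was 1.25 ± 0.22 (adjusted p = 0.024), and all 6 F4/80-low libraries lay above all 6 non-cystic ones. Ankrd1 had 2.98 ± 0.87 (adjusted p = 0.228), with each of its 3 F4/80-low sums above each non-cystic sum. Axl and Ankrd1 were the 2 members with every F4/80-low sum above every non-cystic sum, as in 10.5% of all tested genes. In a further 6.72% of all tested genes every F4/80-low sum was below every non-cystic sum. Ccn1 had 0.86 ± 0.42 (adjusted p = 0.502) and was higher in 2 of 3 kidneys, since kidney 2 had 16.8 CPM in the F4/80-low and 20.7 CPM in the non-cystic sum. Ccn2 had 0.39 ± 0.42, Tead1 0.26 ± 0.18, Wwtr1 0.17 ± 0.16, Ajuba 0.11 ± 0.29, Amotl2 0.07 ± 0.23, Tead3 0.01 ± 0.57 and Yap1 -0.0013 ± 0.17, with adjusted p of 0.679 to 0.999. The direction of Yap1, Tead3 and Amotl2 flipped under other scalings or tests, so these genes have no stable direction here. The median of the members was 0.22, against 0.0026 for all tested genes.

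The Axl call between F4/80-low cystic and non-cystic regions was lost in 5 of 31 alternatives, with log2 fold changes between 1.10 and 1.31 in these. The adjusted p was 0.0875 without F4/80-low library 2 of kidney 2, 0.0726 without F4/80-low library 1 of kidney 3, 0.051 without non-cystic library 1 of kidney 2, 0.276 without kidney 1 and 0.0939 without kidney 2. Ankrd1 was called with the DESeq2 Wald test (2.92, adjusted p = 0.000334) and without kidney 3 (2.77, adjusted p = 0.0286), and Ccn1 without kidney 2 (1.56, adjusted p = 0.0361).

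Among the F4/80-high sums, kidney 3 held the highest value for 10 of 10 members, and over all tested genes it did so for 35.7%. For Yap1 the margin was narrow (21.1, 20.9 and 21.4 CPM in kidneys 1, 2 and 3). The lowest F4/80-high library of Yap1 (16.8 CPM) was from kidney 3, and the highest of Ajuba (26.7 CPM) from kidney 1. Kidney 3 also had the highest macrophage marker sum among the F4/80-high sums, with 2071, 2179 and 5240 CPM in kidneys 1, 2 and 3. The fibroblast markers summed to 648, 501 and 943 CPM and the smooth muscle and pericyte markers to 249, 257 and 419 CPM in the same kidneys, while the proximal tubule markers were lowest in kidney 3, with 941, 1262 and 240 CPM. In F4/80-low sums the highest member values were spread over kidneys 1, 2 and 3 (5, 3 and 2 members), and in non-cystic sums too (2, 5 and 3 members). The part of these markers in the high values of kidney 3 was not tested.

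Markers of several cell types also differed between the region types. All 8 macrophage markers were called higher in F4/80-high cystic than in non-cystic regions, and their sum ran from 2071 to 5240 CPM in F4/80-high, 360 to 454 CPM in F4/80-low cystic and 89.9 to 117 CPM in non-cystic regions. Adgre1, whose product F4/80 defined the cystic region types, is among these 8, so this list is not independent of the dissection. Of the fibroblast markers 5 of 6 were tested and all 5 were called higher, with sums of 501 to 943 CPM in F4/80-high, 208 to 283 CPM in F4/80-low cystic and 46.3 to 65.5 CPM in non-cystic regions. Smooth muscle and pericyte markers, 4 of 6 higher, summed to 249 to 419 CPM in F4/80-high, 77.2 to 180 CPM in F4/80-low cystic and 54.1 to 123 CPM in non-cystic regions. The 7 injured-tubule markers, among them Havcr1 (KIM-1) and Krt20, were all called higher, at 1272 to 1580 CPM in F4/80-high, 392 to 803 CPM in F4/80-low cystic and 116 to 205 CPM in non-cystic regions. Macrophage, fibroblast and injured-tubule sums thus did not overlap between any region types, while the smooth muscle and pericyte sums overlapped between F4/80-low cystic and non-cystic regions.

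Lymphocyte markers, 5 of 6 called higher, summed to 146 to 188 CPM in F4/80-high, 47.7 to 55.1 CPM in F4/80-low cystic and 24.7 to 27.8 CPM in non-cystic regions. Proximal tubule markers ran the other way, with 5 of 6 called lower and sums of 240 to 1262 CPM in F4/80-high, 4140 to 5692 CPM in F4/80-low cystic and 5746 to 7796 CPM in non-cystic regions, and 4 of 6 distal nephron and collecting duct markers were called lower, with sums of 304 to 1406 CPM in F4/80-high, 1763 to 4147 CPM in F4/80-low cystic and 2333 to 2989 CPM in non-cystic regions. General kidney epithelium markers, with Epcam called higher and Cdh16 lower, summed to 328 to 455 CPM in F4/80-high, 410 to 512 CPM in F4/80-low cystic and 461 to 504 CPM in non-cystic regions. The endothelial list, with Pecam1 called higher, and the podocyte list had overlapping sums (166 to 258, 164 to 328 and 145 to 200 CPM for endothelium and 146 to 416, 31.4 to 346 and 61.6 to 143 CPM for podocytes, in F4/80-high, F4/80-low and non-cystic regions). No marker of any list was at 0 counts over a whole region type. Which of these cells held the Axl, Ankrd1, Ccn1, Ccn2 and Ajuba transcripts was not tested.

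**Figure D4:**
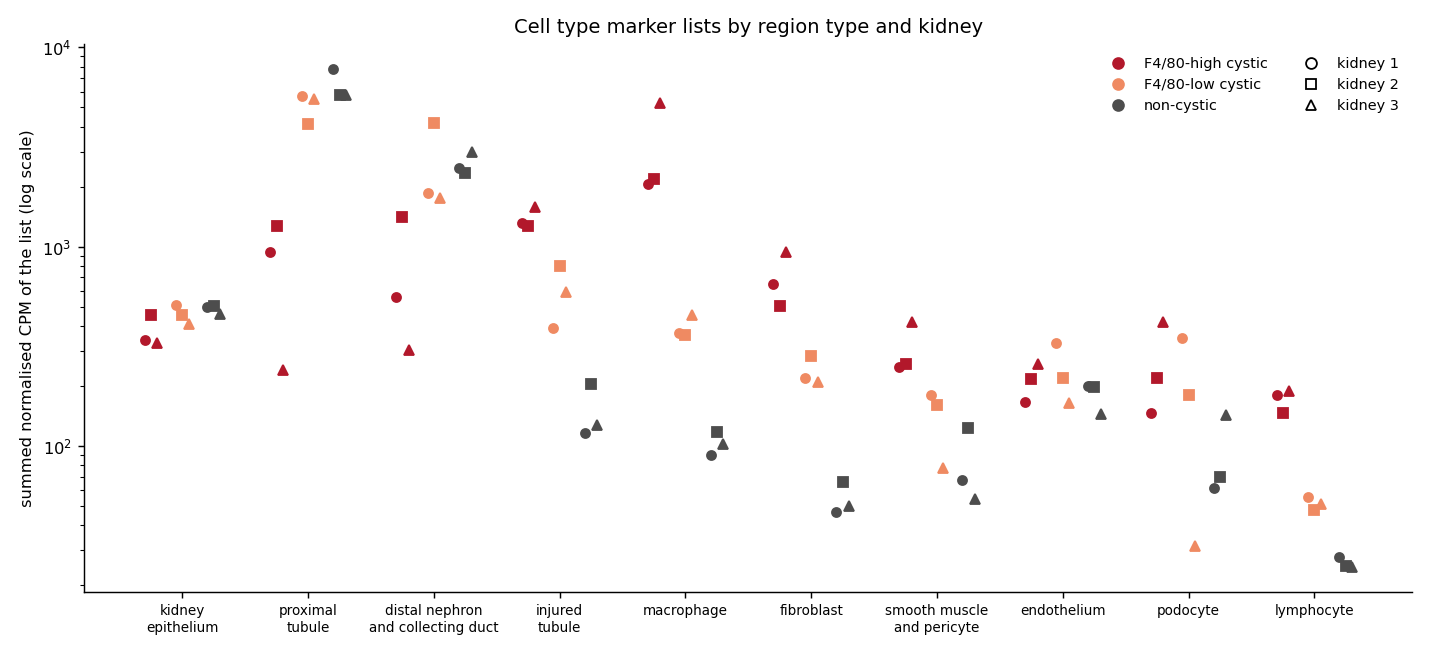
Summed normalised CPM of 10 marker lists (log axis) by region type, with a symbol for each kidney. Macrophage, fibroblast and injured-tubule sums lie highest in F4/80-high and lowest in non-cystic regions, proximal tubule sums lie lowest in F4/80-high regions (240 to 1262 CPM), and kidney 3 has the highest F4/80-high macrophage sum.

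Per kilobase of exon, which allows levels to be compared between genes, Ccn1 was the most abundant member in F4/80-high cystic regions, with 43.2 ± 26.2 CPM per kb (SD, n = 3 kidneys). It stood above Axl (13.8 ± 3.35), whose range overlapped that of Ccn2 (9.98 ± 6.53), which in turn overlapped Ankrd1 (9.95 ± 9.55) and Wwtr1 (9.38 ± 1.89 CPM per kb). Wwtr1 stood above Ajuba (5.52 ± 0.389), which overlapped Amotl2 (5.02 ± 1.49), and Amotl2 above Tead1 (2.91 ± 0.649) and Yap1 (2.28 ± 0.0261 CPM per kb), which overlapped each other. The ranges of Ccn2 (5.17 to 17.4) and Ankrd1 (4.36 to 21.0 CPM per kb) also overlapped those of Ajuba and Amotl2. Tead3 was lowest, at 0.221 ± 0.151 CPM per kb. In F4/80-low cystic regions Ccn1 (15.1 ± 6.56) and Wwtr1 (9.88 ± 1.16 CPM per kb) overlapped at the top. Axl, Ccn2, Amotl2, Ajuba, Tead1, Ankrd1 and Yap1 followed from 5.02 to 1.93 CPM per kb, each overlapping the next, and Tead3 had 0.155 ± 0.0434. In non-cystic regions Wwtr1 led with 8.72 ± 0.485 CPM per kb, overlapping Ccn1 (7.85 ± 3.14), and Ccn2, Amotl2, Ajuba, Tead1, Axl and Yap1 ran from 3.98 to 1.94 with overlap between neighbours. Ankrd1 (0.243 ± 0.125) and Tead3 (0.178 ± 0.109 CPM per kb) overlapped at the bottom. Ankrd1 thus shared the lowest ranks with Tead3 in non-cystic regions and overlapped every member from Axl down to Amotl2 in F4/80-high regions.

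Among the kinases and scaffolds upstream of YAP and TAZ, calls between F4/80-high cystic and non-cystic regions went in both directions. Of 19 Hippo kinases and upstream regulators, 5 were called higher and 2 lower in F4/80-high cystic against non-cystic regions, beside 19.7% and 19.5% of all tested genes, and the list median was 0.45 on the log2 scale, against 0.04 for all tested genes. Map4k4, a kinase that can activate LATS beside MST, averaged 41.1 ± 13.0 CPM in F4/80-high and 15.1 ± 2.86 CPM in non-cystic regions, a log2 fold change of 1.43 ± 0.26 (adjusted p = 0.00224). Frmd6 (Willin), a FERM-domain regulator, had 10.1 ± 4.34 CPM in F4/80-high and 3.02 ± 1.22 CPM in non-cystic regions (1.73 ± 0.38, adjusted p = 0.00583). Mob1a, a LATS cofactor, was higher by 0.85 ± 0.20 (adjusted p = 0.00905) and the kinase Taok3, which acts on MST, by 1.01 ± 0.28 (adjusted p = 0.0191). Stk3, which encodes MST2, was the fifth higher call. The lower calls were Wwc2, a KIBRA relative, at 46.7 ± 5.77 CPM in F4/80-high and 72.5 ± 6.83 CPM in non-cystic regions (-0.64 ± 0.16, adjusted p = 0.0119), and Mob1b. Lats1 and Lats2, the kinases that phosphorylate YAP and TAZ, had 0.07 ± 0.27 (adjusted p = 0.861) and 0.63 ± 0.32 (adjusted p = 0.145), and Lats2 shares exon sequence with Gm49361 on its own strand. Between the cystic region types 4 of the 19, Stk3, Stk4, Mob1a and Frmd6, were higher in F4/80-high regions and 0 were lower. Among all tested genes 10.3% were called higher and 14.0% lower there.

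Several relatives of the members were called too. Of 8 other TEAD, Vestigial-like and angiomotin genes, 6 were tested and 4 were called higher in F4/80-high cystic than in non-cystic regions (19.7% of all tested genes), with a list median of 1.31 on the log2 scale. Tead2, a TEAD factor, had 4.44 ± 2.30 CPM in F4/80-high, 1.87 ± 0.871 CPM in F4/80-low cystic and 0.869 ± 0.163 CPM in non-cystic regions (2.32 ± 0.56 between F4/80-high and non-cystic, adjusted p = 0.00892). Vgll4, which competes with YAP for TEAD, had 50.1 ± 3.44 CPM in F4/80-high, 27.5 ± 7.63 CPM in F4/80-low cystic and 19.5 ± 3.54 CPM in non-cystic regions (1.37 ± 0.22, adjusted p = 0.00131). Vgll3 was higher by 2.69 ± 0.45 (adjusted p = 0.00156) and Amotl1, a second angiomotin, by 1.25 ± 0.29 (adjusted p = 0.00772). Tead4 had 1.20 ± 0.70 (adjusted p = 0.202). Of the LIM proteins related to Ajuba, Wtip was higher by 0.98 ± 0.25 (adjusted p = 0.0109) and Limd1 had 0.32 ± 0.18 (adjusted p = 0.183). Ccn4, the 1 tested gene of 4 other CCN family members, averaged 30.5 ± 22.5 CPM in F4/80-high, 10.7 ± 2.63 CPM in F4/80-low cystic and 3.57 ± 1.15 CPM in non-cystic regions (2.92 ± 0.46, adjusted p = 0.00191). Vgll3, Vgll4 and Ccn4 were also called higher in F4/80-high than in F4/80-low regions. Tead2 shares 13 exon bases with a gene on the other strand and Wwc2 shares 995, so reads within these bases cannot be assigned.

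The published YAP/TAZ target signature, a list derived from cultured human cells, held 17 genes beside the members, of which 16 were tested. In F4/80-high cystic against non-cystic regions 7 of these were called higher (Myof, Asap1, Ccdc80, Nt5e, Arhgef17, Tgfb2 and Rbms3) and Igfbp3 lower, where 19.7% of all tested genes were called higher and 19.5% lower, and the median was 0.76 on the log2 scale. Myof, which encodes the membrane repair protein myoferlin, averaged 81.1 ± 19.9 CPM in F4/80-high, 25.7 ± 4.47 CPM in F4/80-low cystic and 6.51 ± 1.96 CPM in non-cystic regions (3.66 ± 0.29, adjusted p = 4.66e-05). Nt5e, the ectonucleotidase CD73, had 56.1 ± 14.4 CPM in F4/80-high and 16.6 ± 4.61 CPM in non-cystic regions (1.75 ± 0.21, adjusted p = 0.000353). Tgfb2, a TGF-beta ligand, was higher by 3.23 ± 0.47 (adjusted p = 0.00105). Igfbp3, which binds insulin-like growth factors, was lower, with 31.2 ± 11.4 CPM in F4/80-high and 98.3 ± 30.2 CPM in non-cystic regions (-1.66 ± 0.22, adjusted p = 0.000537). Between the cystic region types 5 of the 16, Myof, Ccdc80, Nt5e, Tgfb2 and Rbms3, were higher and Igfbp3 lower in F4/80-high regions, where 10.3% of all tested genes were called higher and 14.0% lower. Myof was the 1 signature gene beside Axl called between F4/80-low cystic and non-cystic regions.

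AP-1 factors, which share many enhancers with TEAD, and actin genes, which respond to the tension-sensitive factors MRTF and SRF, were also called. Of 6 tested AP-1 and Atf3 genes 5 were higher in F4/80-high cystic than in non-cystic regions (19.7% of all tested genes), with a list median of 2.13 on the log2 scale. Fos had 2.90 ± 0.34 (adjusted p = 0.000281), Jun 2.20 ± 0.30 (adjusted p = 0.000667), Fosl2 2.05 ± 0.40 (adjusted p = 0.00414), Junb 1.34 ± 0.33 (adjusted p = 0.0116) and Atf3 2.73 ± 0.82 (adjusted p = 0.0364). Fos and Jun were called higher between F4/80-low cystic and non-cystic regions too, and Fos between the cystic region types. A list of 12 genes held Srf, Mrtfa and Mrtfb with actin and SRF target genes. Of these 8 were called higher (19.7% of all tested genes) and 0 lower, with a median of 1.52. Srf itself had -1.05 ± 0.64 (adjusted p = 0.226). Tpm1, a tropomyosin, averaged 306 ± 87.7 CPM in F4/80-high, 132 ± 23.1 CPM in F4/80-low cystic and 60.9 ± 18.8 CPM in non-cystic regions (2.36 ± 0.29, adjusted p = 0.000363). The filamin gene Flna was higher by 2.59 ± 0.33 (adjusted p = 0.000584), the actinin gene Actn1 by 2.12 ± 0.32 (adjusted p = 0.00101), the vinculin gene Vcl by 1.32 ± 0.24 (adjusted p = 0.00236) and the coactivator Mrtfb by 0.92 ± 0.18 (adjusted p = 0.00313). The other calls were Myl9, a myosin light chain gene, Tagln and Acta2. Tpm1, Flna, Actn1 and Vcl were higher in F4/80-high than in F4/80-low regions as well. Tagln and Acta2 stand in the smooth muscle and pericyte list too. Actn1, Vcl, Mrtfb, Tagln, Jun, Junb and Tgfb2 overlap genes on the other strand, by 124 (Tgfb2) to 2090 (Vcl) exon bases, so their counts are uncertain there.

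Of the other TAM receptors and their ligands, Pros1 and Tyro3 were called higher in F4/80-high cystic than in non-cystic regions. Pros1, the gene of the ligand protein S, averaged 87.5 ± 8.28 CPM in F4/80-high, 28.8 ± 10.9 CPM in F4/80-low cystic and 11.8 ± 4.0 CPM in non-cystic regions (2.89 ± 0.36, adjusted p = 0.000636). Tyro3 had 92 counts in F4/80-high, 48 in F4/80-low and 3 in non-cystic libraries together, too few in non-cystic regions for a fold change. Gas6, the ligand with the highest affinity for AXL, had 105, 112.5 and 82.8 CPM in F4/80-high, 144, 116 and 114 CPM in F4/80-low cystic and 115, 96.8 and 110 CPM in non-cystic sums (-0.11 ± 0.18, adjusted p = 0.679), and it overlaps a gene on the other strand. Mertk, the TAM receptor of many resident macrophages, had 27.9 ± 7.46 CPM in F4/80-high, 25.3 ± 5.48 CPM in F4/80-low cystic and 26.9 ± 3.14 CPM in non-cystic regions (0.05 ± 0.24, adjusted p = 0.901).

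**Figure D5:**
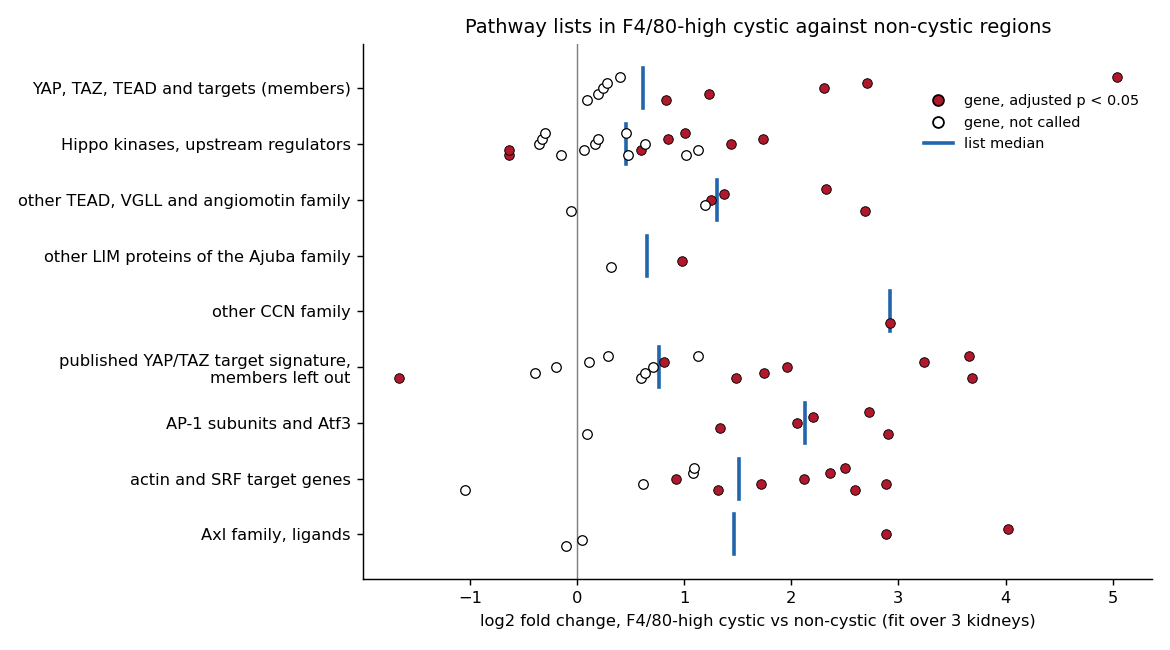
Log2 fold changes of the tested genes of each list between F4/80-high cystic and non-cystic regions, filled where the adjusted p was below 0.05, with the list median as a blue line. The members' median is 0.62, the Hippo regulators spread on both sides of 0, and the AP-1 list has the median 2.13.

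The gene whose profile over the 9 kidney and region sums lay nearest to each member was found among 13884 tested genes by the root mean square (RMS) difference of centred log2 CPM. For Axl it was Efemp2, an elastic fibre glycoprotein gene (0.161), for Ankrd1 Cd276 (0.475), for Ccn1 Pik3cd (0.209), for Ccn2 Mid1ip1 (0.154) and for Ajuba Kctd14 (0.111). For Yap1 it was Man2b2 (0.0683), for Wwtr1 Ddx49 (0.0456), for Tead1 Med13l (0.121), for Tead3 Lmnb2 (0.315) and for Amotl2 Map4k3 (0.0961). Small values for Yap1 and Wwtr1 come with flat profiles, whose own RMS was 0.141 and 0.176. No member was the nearest gene of another: the closest case was Amotl2 at rank 38 for Tead3, then Wwtr1 at rank 100 for Tead1, and Ccn1 had Axl at rank 208. These profiles share kidneys, libraries and cell makeup.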

How the data were processed

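The authors deposited raw counts of reads for every gene in every library, not normalized. Per the submitters' processing notes the assembly was mm10 (GRCm38) and FastQC 0.11.9, fastp 0.20.1 and HTSeq 0.11.0 were used, without stated roles. Not given in the sources used here are the aligner, the release of the annotation and any strand setting. Per the labels' protocols the low-input library kit was used on TRI reagent extracts of frozen tissue. Both libraries from 1 kidney and region type were added up, since they share a kidney, leaving 9 sums.

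edgeR 4.0.16 in R 4.3.3 fitted these sums (scaling by the trimmed mean of M values, filterByExpr by region type, robust quasi-likelihood test), with the 3 region types and the kidney as block in 1 model with 4 residual degrees of freedom. The block rests on the labels: sums with the same kidney number come from the same kidney. Their deviations correlated at -0.154 to 0.275. P-values set each region difference against the residual spread of the gene in the whole model, over all 3 region types, drawn towards that of other genes. The 3 kidneys may not be separate mice. The SE was worked back from the F statistic, as the size of the log2 fold change divided by the root of F. CPM of single libraries was scaled over the 18 libraries. Gene positions and exon lengths come from GENCODE M21, promoter windows from RefSeq. The 50 identifiers without a symbol held 0.000726% of the counts. Alternatives used DESeq2 1.42.0, limma 3.58.1, other scalings and filters, and fits with a library or kidney left out.

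All 10 members are named. Of each pathway list, counts are given with up to 5 genes of smallest p between F4/80-high cystic and non-cystic regions, and other called genes by name. Lats1, Lats2, Gas6, Mertk, Tead4, Limd1 and Srf are given as well. The nearest gene by profile was named for each member. Members and lists were chosen with earlier results of these data known.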

Additional observations from a re-analysis of the deposited data

Results flagged for a closer look

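Each member was checked in each region type for a library apart from the other 5, which made 30 groups of 6 libraries. A library was marked where its gap to the nearest other, divided by the range of the group, exceeded Dixon's critical value of 0.625, which chance exceeds in about 1 in 20 groups. Library 1 of kidney 1 among the F4/80-low cystic regions had 1.861 CPM of Tead3, with the others at 0.706 to 1.04 CPM. Library 2 of kidney 2 among the non-cystic regions had 1.713 CPM of Ankrd1, with the others at 0.172 to 0.71 CPM. It remained below the lowest F4/80-high library of Ankrd1, at 7.13 CPM, and both values rest on 14 counts.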

How the results depend on the processing

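Over 31 alternatives the 30 results on single members gave 927 values, of which 807 kept direction and side of the threshold, 26 passed it, 44 lost it and 50 changed sign. No sign change fell among the 8 called results, and the lowest adjusted p at a changed sign was 0.123. Members called between F4/80-high cystic and non-cystic regions numbered 5, 9 with total counts and 2 to 5 with a library or kidney left out (2 without kidney 3). Between the cystic types the 2 became 4 with total counts, 1 with no filter, 5 with 18 libraries and a replicate block, with a kidney block or in limma voom with the kidney as random effect, and 1 to 3 with a library or kidney left out. Between F4/80-low cystic and non-cystic regions the 1 became 2 with the DESeq2 Wald test and with 18 libraries and a replicate block or kidney block, and 0 to 2 with a library or kidney left out. Without the kidney block 4, 2 and 1 members were called. The fits on 18 libraries, limma voom among them, enter both libraries of a kidney and region type singly, although they share a kidney.

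Calls over all genes between F4/80-low cystic and non-cystic regions numbered 246, against 523 with no filter, 675 with the DESeq2 Wald test, 522 with the replicate block, 601 with 18 libraries and the kidney block and 23 to 578 with a library or kidney left out (23 without kidney 1). Between the cystic types they numbered 3895, 5922 with limma voom and 988 to 4214 with a library or kidney left out (988 without kidney 1). Between F4/80-high and non-cystic regions the 6289 became 3359 (without kidney 1) to 6550 with a library or kidney left out, and 5540 (stricter filter) to 8071 (total counts) over the other alternatives.

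Changed signs of log2 fold changes were as follows. Between F4/80-low cystic and non-cystic regions Yap1 (-0.0013) had 0.13 with total counts, 0.009 with no filter, 0.0008 with the stricter filter, 0.0048 with the replicate block, 0.0068 with 18 libraries and the kidney block and 0.0024 with limma voom. Tead3 (0.01) had -0.018 with DESeq2 size factors, -0.0066 with the DESeq2 Wald test, -0.20 without the block and -0.037 with 18 libraries and the kidney block, and Amotl2 (0.07) had -0.018 with limma voom. Between the cystic types Wwtr1 had 0.41 with total counts and 0.039 with the upper quartile, and Tead1 0.42 and 0.057. With a library or kidney left out the ranges were -0.10 to 0.073 for Yap1, -0.68 to 0.51 for Tead3, -0.25 to 0.27 for Amotl2, -0.11 to 0.83 for Ccn2 and -0.12 to 0.43 for Ajuba (F4/80-low against non-cystic), -0.083 to 0.60 for Tead3 and -0.080 to 0.19 for Wwtr1 (F4/80-high against non-cystic), and -0.19 to 0.082 for Tead1 and -0.27 to 1.08 for Tead3 (F4/80-high against F4/80-low). The cause was not tested.

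The replicate number within a kidney did not pair libraries, with correlations of -0.105 to 0.132. Tead3 had no value under the stricter filter, and the depth limits it and non-cystic Ankrd1 the most.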
